A study of Mus musculus with 12 samples.

Results

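Serpins are a superfamily of proteins named for serine protease inhibition, and 63 of the 23991 genes in the table of liver RNA levels analysed here carry a serpin symbol with a clade letter from a to i. For each symbol the transcript with the highest mean over the 12 libraries was used. Clade a had 25 genes, clade b 27, clade e 3, clades f and i 2 each, and clades c, d, g and h 1 each. The Serpina1 cluster, the mouse copies of alpha1-antitrypsin, had 6 of these genes, and the Serpina3 cluster, the copies of alpha1-antichymotrypsin, had 11.

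The 12 libraries were polyA RNA of livers of male C57/Bl6J mice, 4 per group, with diets begun at 4 weeks of age and kept for 16 weeks. HFD+ASBTi mice received high-fat feed to which cholesterol (0.2%) and SC-435 (0.006%) had been added. SC-435 blocks ASBT, by which the ileum recovers bile acids from the gut. HFD mice ate the high-fat, cholesterol-enriched diet alone, and chow mice ate chow. No gene was targeted, and all groups were of the same strain and sex. Whether 1 library stands for 1 mouse is not given in the labels, and the p-values therefore describe variation among libraries, part of which may be technical. Values are listed in the order of libraries 1, 2, 3 and 4 for HFD+ASBTi and for HFD, and 1, 2, C7 and 4 for chow, where C7 is a column matched to the chow group but to no single sample label.

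A serpin is folded in a strained state with an exposed reactive centre loop that serves as bait. When a target protease cuts the loop, the loop inserts into the body of the serpin and the protease is trapped in a covalent complex, so that each molecule acts a single time. Hepatocytes make most clade a serpins and the antithrombin, antiplasmin and C1 inhibitor of plasma, while clade b serpins stay inside cells, and a few members (Serpina6, Serpina7, Serpinf1, Serpinh1) inhibit no protease and serve as hormone carriers, a secreted factor or a collagen chaperone.

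The Serpina1 copies are shown because their values rest on how reads of nearly the same sequence were divided. The coding sequences of Serpina1a to Serpina1e, each 1242 bases long in the GENCODE annotation of GRCm38, were 96.3% to 98.47% identical in pairs, and 86 of the 1242 positions differed among the 5 copies. Of all stretches of 60 bases, coding bases 1101 to 1160 held the most such positions (18, against a median of 4), and they encode the reactive centre loop. They are printed here with the differing positions in capitals.
Serpina1a: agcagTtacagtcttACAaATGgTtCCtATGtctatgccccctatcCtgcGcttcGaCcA
Serpina1b: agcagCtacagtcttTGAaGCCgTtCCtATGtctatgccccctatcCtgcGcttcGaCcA
Serpina1c: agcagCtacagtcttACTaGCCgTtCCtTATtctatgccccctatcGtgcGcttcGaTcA
Serpina1d: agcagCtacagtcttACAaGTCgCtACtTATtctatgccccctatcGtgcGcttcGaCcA
Serpina1e: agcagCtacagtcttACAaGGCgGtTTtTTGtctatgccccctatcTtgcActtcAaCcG

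Of the 50-base windows of the spliced transcripts, 72.2% in Serpina1a and 73.0% in Serpina1c also occurred in another serpin, against 45.0% in Serpina1b, 46.0% in Serpina1d and 37.9% in Serpina1e. Reads from such windows cannot be assigned to 1 copy, so the level of each Serpina1 copy is uncertain, most of all for Serpina1a and Serpina1c. In the Serpina3 cluster the share was lower, at 13.7% for Serpina3k, 19.1% for Serpina3m and 6.75% for Serpina3n. Serpina6, Serpina7, Serpina11, Serpina12, Serpinc1, Serpind1, Serpinf1, Serpinf2, Serping1 and Serpinh1 shared no such window with another serpin.

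The Serpina1 promoters are shown because the copies differed in how their RNA varied between groups. In RefSeq promoters (GRCm38.p6, all on the minus strand of chromosome 12), 76 bases ending 10 bases after the motif GTTAAT, an arm of the binding site of the liver factor HNF1, were 90.79% to 97.37% identical in pairs. The motif, in capitals, lay at positions -27 to -11 from the annotated start in Serpina1a to Serpina1d and at -78 to -73 in Serpina1e. The stretches are chr12:103863625-103863700 for Serpina1a, chr12:103738200-103738275 for Serpina1b, chr12:103904962-103905037 for Serpina1c, chr12:103773634-103773709 for Serpina1d and chr12:103956960-103957035 for Serpina1e.
Serpina1a: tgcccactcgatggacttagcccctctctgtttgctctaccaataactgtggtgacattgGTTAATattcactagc
Serpina1b: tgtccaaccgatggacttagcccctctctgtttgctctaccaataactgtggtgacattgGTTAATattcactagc
Serpina1c: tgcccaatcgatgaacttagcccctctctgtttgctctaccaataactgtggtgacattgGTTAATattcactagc
Serpina1d: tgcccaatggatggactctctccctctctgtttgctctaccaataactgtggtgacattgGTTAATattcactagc
Serpina1e: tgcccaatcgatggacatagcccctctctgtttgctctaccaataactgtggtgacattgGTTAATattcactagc

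Serpina7 and Serpina12 were the serpins that passed the test in both comparisons with chow, and the 150 bases before their annotated starts are shown for that reason (RefSeq, GRCm38.p6, minus strand, chrX:139085237-139085386 for Serpina7 and chr12:104044444-104044593 for Serpina12). Capitals mark GTTAAT and the TATA motif TATAAA.
Serpina7: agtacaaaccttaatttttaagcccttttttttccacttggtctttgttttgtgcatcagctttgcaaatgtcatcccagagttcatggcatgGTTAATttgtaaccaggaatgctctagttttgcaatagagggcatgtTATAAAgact
Serpina12: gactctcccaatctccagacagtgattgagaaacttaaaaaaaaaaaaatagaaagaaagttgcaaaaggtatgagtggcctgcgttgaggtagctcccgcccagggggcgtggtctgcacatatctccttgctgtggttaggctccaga

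Among the 52 serpins with a promoter in the RefSeq table, 8 held GTTAAT on either strand within those 150 bases, and 3.76% of 27025 promoters did. These were Serpina1a to Serpina1e, Serpina7, Serpinb3b and Serpini2. The Serpina1 stretches are copies of one another, so the 8 are not separate sites. Serpinb3b and Serpini2 were listed at 0 in every library. The TATA motif was found in 10 serpin promoters (8.08% of all promoters) and the STAT5 motif TTCNNNGAA in 6 (4.17%). Related genes were also among these, Serpina3a to Serpina3c and Serpinb3a to Serpinb3d for TATA, and Serpina3f, Serpina3g and Serpina3i for STAT5. The HNF4 motif CAAAGTCCA was found in no serpin promoter (0.274% of all), and the Serpina12 stretch held none of the 4 motifs. These matches are descriptions of letters, not of binding.

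Of the 63 serpins, 14 were listed at 0 in every library, and 21 had RPKM (reads scaled by length and library total) of at least 0.5 in at least 4 libraries, the filter for testing. Of these 21, 14 were of clade a, 2 of clade f, and 1 each of clades b, c, d, g and h. The 24 clade a genes other than Serpina7 lie on chromosome 12, and 13 of them passed. Serpina7 lies on chromosome X. A filter on level favours genes that are high in some group, so counts over these 21 are not counts over all serpins. All 10 hepatocyte markers examined also passed the filter. Of these 10, 0 were higher in any comparison, and 0 were lower for HFD+ASBTi against HFD, 2 for HFD+ASBTi against chow and 3 for HFD against chow by limma.

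**Figure D1:**
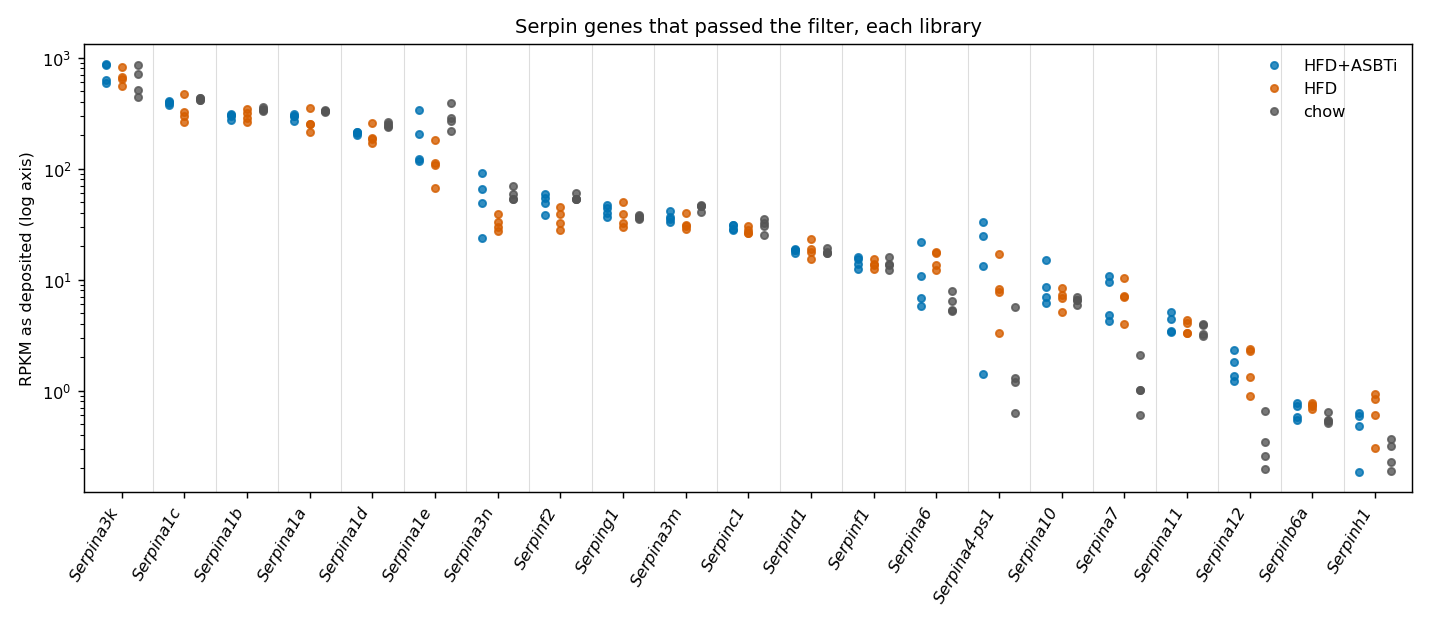
RPKM on a log axis for the 21 serpin genes that passed the filter, 1 point per library, with HFD+ASBTi at the left, HFD in the middle and chow at the right of each gene. Serpina7 and Serpina12 lay lower in all 4 chow libraries than in the other 8, and the Serpina1 copies and Serpina3k were the highest in RPKM.

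Log2 differences are limma estimates on log2(RPKM + 0.5) with all 12 libraries in 1 model, each given with its standard error (SE). Adjusted p-values are Benjamini-Hochberg values over the 6325 genes tested, and a gene passed the test at an adjusted p under 0.05. With inhibitor against the diet alone, 0 of the 21 serpins passed by limma (1 at an unadjusted p under 0.05), and 0.0949% of all genes tested did, 0.0316% higher and 0.0632% lower (6 genes, and 586 at an unadjusted p under 0.05). With inhibitor against chow, 2 serpins were higher and 0 lower, where 4.74% of all genes were higher and 2.31% lower (7.05% in all). On the diet alone against chow, 3 serpins were higher and 3 lower, where 7.65% of all genes were higher and 4.46% lower (12.1% in all). With the libraries scaled by the median of ratios, higher genes were 49.2% of those that passed for HFD+ASBTi against chow (67.3% as deposited) and 46.0% for HFD against chow (63.2% as deposited), and the serpin counts were 2 and 6 as before.

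The median log2 difference of the 21 serpins was 0.10 for HFD+ASBTi against HFD, 0.05 for HFD+ASBTi against chow and 0.01 for HFD against chow, beside 0.01, 0.03 and 0.02 over all genes tested. The count of 6 for HFD against chow changed when single libraries were left out, as did the count over all genes, 766 with every library. It was 2 without HFD 3, chow 1, chow 2 or chow C7 (475, 494, 458 and 534 over all genes). It was 3 without HFD 2 (488 over all genes), and 9 without HFD 1 or without HFD+ASBTi 3 (698 and 864). The libraries of HFD+ASBTi and HFD overlapped for all 21 genes (3.97% of genes tested did not overlap, 2.32% higher and 1.64% lower). Those of HFD+ASBTi and chow did not overlap for 2 higher and 4 lower serpins (10.2% and 5.53% of genes tested, 15.8% in all). The 4 lower ones were Serpina1a to Serpina1d, near-identical copies that may share reads, so they do not count as 4 separate genes. Those of HFD and chow did not for 4 higher and 4 lower serpins (12.4% and 8.89% of genes tested, 21.3% in all).

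**Figure D2:**
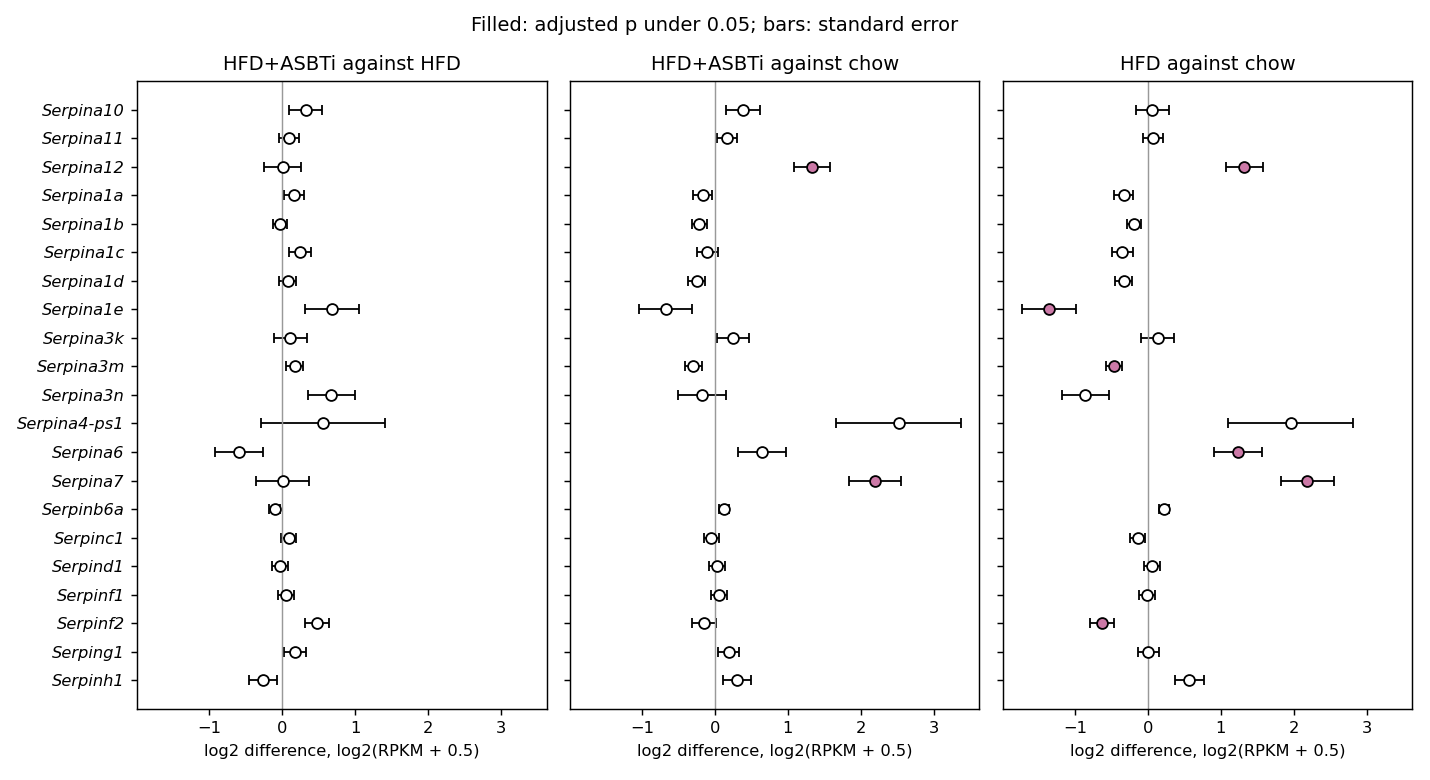
Limma log2 differences in log2(RPKM + 0.5) for the 21 serpin genes, ordered by clade, in the 3 comparisons. Points are estimates, bars are standard errors, and filled points passed at an adjusted p under 0.05. No point is filled for HFD+ASBTi against HFD, 2 are for HFD+ASBTi against chow and 6 are for HFD against chow.

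Estimated depth was 8962800 to 11260300 reads for HFD+ASBTi, 10311200 to 13226600 for HFD and 10651800 to 11351900 for chow, and log2 values of libraries of the same group correlated at 0.975 to 0.987 across genes. Of the marker sums of other cells, that of red blood cells separated chow from both other groups, and the rest overlapped chow in both. Red blood cell markers summed to 197 to 352 RPM (reads scaled to the library total but not to length) in HFD+ASBTi, 214 to 363 in HFD and 60.9 to 181 in chow libraries. Adipose markers summed to 10.8 to 34.5 RPM in HFD+ASBTi, 13.7 to 85.9 in HFD and 7.08 to 14.7 in chow. HFD 1 stood apart from HFD 2, 3 and 4 with an adipose sum of 13.7 RPM (74.5 to 85.9 in the others) and a stellate cell sum of 22.7 RPM (48.8 to 64.3 in the others). Their part in the serpin results was not tested. In whole liver, fewer cells of a type and less RNA per cell cannot be told apart.

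Levels of different genes were compared per spliced length, because the deposited RPKM had been divided by the genomic span, introns included. Over the 12 libraries the 6 highest serpins were Serpina1c (2815 RPM per spliced kb), Serpina3k (2532), Serpina1b (2258), Serpina1a (1877), Serpina1d (1579) and Serpina1e (1534). In this scale they ranked 5, 9, 12, 17, 20 and 24 among all genes. The next was Serping1, the C1 inhibitor of complement and the contact system, at 220.0 RPM per spliced kb. Serpinc1, antithrombin, was at 161, and Serpina7 at 13.3. These levels depend on the annotated transcript length, which for Serpinc1 was 4.97 kb. Serpins with a span held 2.28% ± 0.277 of all reads in HFD+ASBTi, 2.03% ± 0.321 in HFD and 2.43% ± 0.216 in chow libraries (SD, n = 4 each), and the groups overlapped.

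Among the hormone carriers, Serpina7, thyroxine-binding globulin of plasma, was higher on both high-fat diets. Its RPKM was 10.8, 4.76, 4.25 and 9.60 in HFD+ASBTi, 3.94, 7.17, 10.3 and 7.02 in HFD, and 1.01, 1.002, 2.10 and 0.602 in chow libraries. All 8 high-fat libraries were above all 4 chow libraries, with HFD 1 the lowest of the 8 and C7 the highest of chow. With inhibitor the mean was 7.34 ± 3.32 RPKM, against 1.18 ± 0.645 in chow (SD, n = 4 each), a 6.22-fold difference (log2 2.19, SE 0.36, limma adjusted p = 0.00814). For HFD against chow the log2 difference was 2.18 (SE 0.36, limma adjusted p = 0.00432). Serpina7 passed in both comparisons under each alternative setting and without each library in turn (limma adjusted p 8.45e-04 to 0.0289). Between HFD+ASBTi and HFD the log2 difference was 0.01 (SE 0.36), so a change of either sign within that error was not detectable.

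Serpina6, corticosteroid-binding globulin, carries corticosterone in mouse plasma. Its RPKM was 5.81, 6.78, 21.8 and 10.7 in HFD+ASBTi, 17.5, 13.5, 12.3 and 17.6 in HFD, and 6.37, 5.17, 5.32 and 7.92 in chow libraries. HFD libraries were all above chow, while HFD+ASBTi libraries spanned the range from chow levels (1 and 2) to above HFD (3). HFD averaged 15.3 ± 2.73 RPKM, against 6.20 ± 1.27 in chow (SD, n = 4 each; log2 1.24, SE 0.33, limma adjusted p = 0.0349). That call ended without any 1 of the HFD libraries or of chow 1, 2 or C7, and with no filter on low values (limma adjusted p 0.0562 to 0.0894). Serpina6 did not pass for HFD+ASBTi against HFD (log2 -0.59, SE 0.33, limma adjusted p = 0.621) or against chow (0.65, SE 0.33, 0.272).

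Of 11 tested genes of thyroid hormone transport and action, 0 passed by limma in any comparison. Their median log2 difference was 0.10 for HFD+ASBTi against HFD, 0.08 for HFD+ASBTi against chow and 0.07 for HFD against chow. Of 14 tested genes of glucocorticoid transport and action, 0 passed for HFD+ASBTi against HFD, 4 were lower for HFD+ASBTi against chow and 3 were lower for HFD against chow. Fkbp5, a glucocorticoid-induced co-chaperone of the receptor, was at 0.338 ± 0.167 RPKM in HFD+ASBTi, 0.240 ± 0.0815 in HFD and 1.21 ± 0.158 in chow (SD, n = 4 each; limma adjusted p = 0.00225 for HFD+ASBTi against chow and 4.82e-04 for HFD against chow). Fkbp5 averaged under the 0.5 RPKM of the filter in HFD+ASBTi and in HFD, and above it in chow alone. Pck1 and G6pc, enzymes of gluconeogenesis, were the others lower in both. Tat, tyrosine aminotransferase, was lower for HFD+ASBTi against chow (log2 -1.44, limma adjusted p = 0.0456). The lists in this text were chosen with earlier results of these data known, and stand here as counts beside the percentages above.

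Serpina12, vaspin, is a serpin described in adipose tissue that inhibits a kallikrein. Its RPKM was 2.31, 1.21, 1.35 and 1.82 in HFD+ASBTi, 1.33, 2.25, 2.36 and 0.901 in HFD, and 0.258, 0.347, 0.657 and 0.195 in chow libraries. As for Serpina7, all 8 high-fat libraries were above all 4 chow libraries, and C7 was the highest of chow. HFD+ASBTi averaged 1.67 ± 0.498 RPKM, against 0.364 ± 0.205 in chow (SD, n = 4 each), a 4.60-fold ratio of mean RPKM. HFD averaged 1.71 ± 0.711 RPKM, 4.70-fold the chow mean. The log2 differences rest on log2(RPKM + 0.5), which understates such ratios at these low levels. They were 1.33 for HFD+ASBTi against chow (SE 0.25, limma adjusted p = 0.0140) and 1.32 for HFD against chow (SE 0.25, limma adjusted p = 0.00805). Both calls held under each alternative and without each library (limma adjusted p 0.00170 to 0.0418), while the log2 difference of HFD against chow ranged from 0.96 to 2.17 with the pseudocount and scale. Of the chow libraries only C7 reached the 0.5 RPKM of the filter, so Serpina12 was tested because of its high-fat libraries.

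Between HFD+ASBTi and HFD the log2 difference of Serpina12 was 0.01 (SE 0.25, limma adjusted p = 0.995). The adipose marker sum was 34.5, 22.2, 10.8 and 12.4 RPM in HFD+ASBTi, 13.7, 84.9, 85.9 and 74.5 RPM in HFD, and 7.83, 7.08, 14.7 and 8.24 RPM in chow libraries. Of the 8 adipose markers, 3 were tested. Cidec, a lipid droplet protein, and Cfd were higher for HFD against chow. Cidec averaged 3.57 ± 1.99 RPKM in HFD and 0.456 ± 0.0668 in chow (SD, n = 4 each; log2 1.89, limma adjusted p = 0.0128). Cfd averaged 4.01 ± 2.97 RPKM in HFD and 0.195 ± 0.358 in chow (SD, n = 4 each; log2 2.52, limma adjusted p = 0.0188). Both averaged under the 0.5 RPKM of the filter in chow. By limma 0 adipose markers passed for HFD+ASBTi against HFD or against chow, and Adipoq, Plin1, Retn and Lep were under 0.5 RPKM in every library. The part of these markers in the Serpina12 values was not tested.

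The clock genes Dbp and Arntl were looked at after the values were seen. Of these, Dbp separated chow from both other groups as Serpina7 and Serpina12 did. Dbp, a transcription factor of the clock's output, was at 69.2, 75.0, 114 and 82.8 RPM in HFD+ASBTi, 119, 93.2, 116 and 123 RPM in HFD, and 44.6, 52.1, 26.1 and 59.4 RPM in chow libraries, with no overlap between chow and either other group. Arntl, a core clock gene, was at 3.08, 3.82, 0.669 and 0.543 RPM in HFD+ASBTi, 0.381, 1.07, 0.663 and 0.377 RPM in HFD, and 1.75, 1.31, 6.25 and 2.03 RPM in chow libraries. HFD was below chow without overlap for Arntl, and HFD+ASBTi overlapped both. Without overlap, 12.4% of genes tested were higher for HFD against chow and 10.2% for HFD+ASBTi against chow. For HFD against chow, 8.89% of genes tested were lower without overlap. Among genes under the filter with all 4 libraries of a group above 0, 3.92% were. The part of the clock genes in the serpin results was not tested.

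Serpina4-ps1, a transcribed pseudogene related to kallistatin, varied most among libraries. Its RPKM was 24.9, 1.42, 13.3 and 32.9 in HFD+ASBTi, 7.71, 8.23, 3.31 and 16.9 in HFD, and 0.626, 1.29, 5.62 and 1.21 in chow libraries. HFD+ASBTi 2 lay at chow levels and chow C7 within the HFD range, so that all groups overlapped. The means were 18.1 ± 13.8, 9.04 ± 5.69 and 2.19 ± 2.31 RPKM (HFD+ASBTi, HFD and chow; SD, n = 4 each). The gene did not pass for HFD+ASBTi against chow (log2 2.52, SE 0.85, limma adjusted p = 0.103) or for HFD against chow (1.95, SE 0.85, 0.159). Without HFD+ASBTi 2 the first of these passed (log2 3.41, limma adjusted p = 0.0208; 0.0208 to 0.222 over its alternatives).

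**Figure D3:**
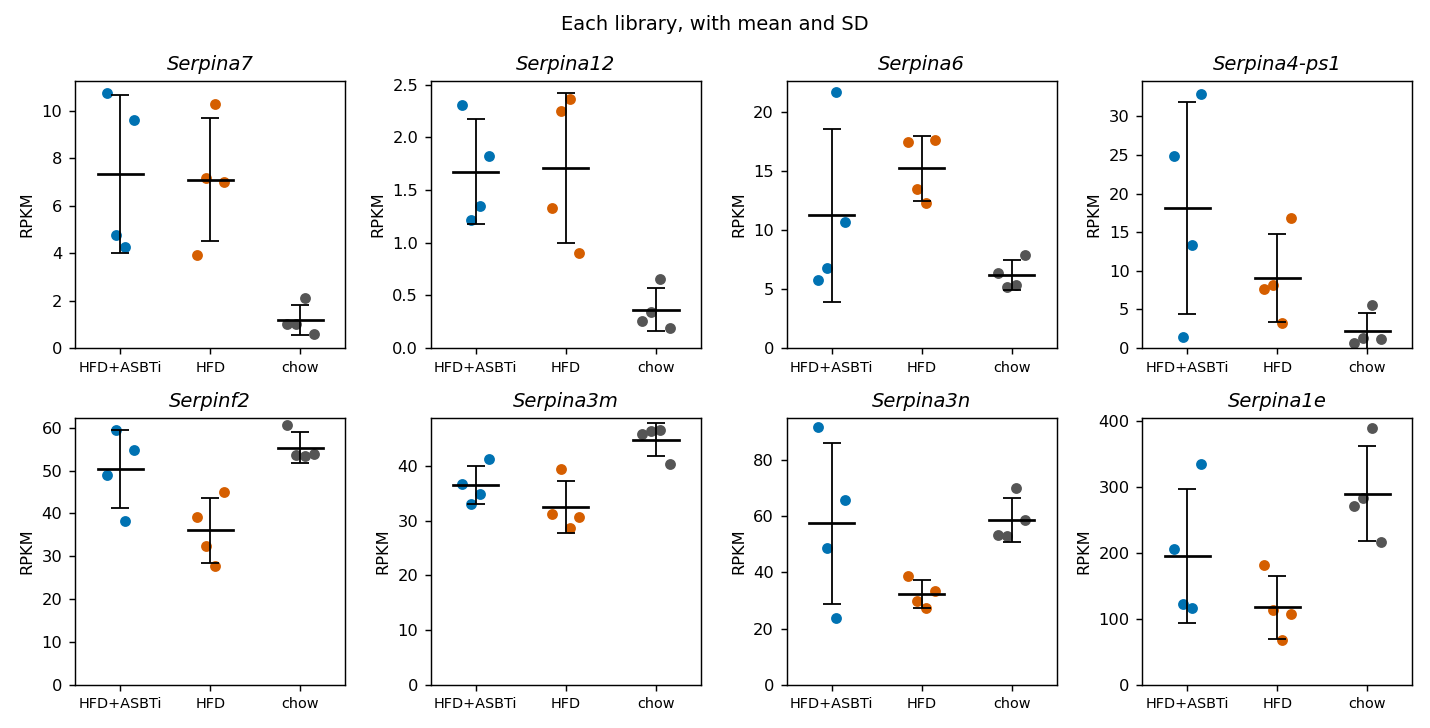
RPKM of 8 serpin genes in each library, with HFD+ASBTi at the left, HFD in the middle and chow at the right. Points are libraries, lines are means and bars are SD (n = 4 each), drawn down to 0 at most. Serpina7 and Serpina12 separated chow from both other groups, while Serpina6, Serpinf2, Serpina3m, Serpina3n and Serpina1e separated HFD from chow with HFD+ASBTi overlapping HFD.

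The Serpina1 cluster makes alpha1-antitrypsin, the main plasma inhibitor of neutrophil elastase in humans, and its copies summed to 1.39% ± 0.139 of reads in HFD+ASBTi, 1.22% ± 0.264 in HFD and 1.63% ± 0.0807 in chow (SD, n = 4 each). The sum is less open to the division of reads among copies than any single copy. It was 13987, 13453, 12323 and 15655 RPM in HFD+ASBTi, 15987, 11639, 9789.5 and 11546 RPM in HFD, and 16622, 16363, 17073 and 15181 RPM in chow libraries. HFD 2, 3 and 4 were the 3 lowest of the 12 libraries, and HFD 1 was within the chow range. Serpina1f was listed at 0 in every library.

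Serpina1e was the copy that varied most. Its RPKM was 206, 123, 117 and 335 in HFD+ASBTi, 182, 113, 67.4 and 107 in HFD, and 271, 284, 389 and 217 in chow libraries. All HFD libraries were below all chow libraries, while HFD+ASBTi 4 was within the chow range and HFD+ASBTi 2 and 3 were within the HFD range. HFD averaged 117 ± 47.6 RPKM, against 290.2 ± 72.1 in chow (SD, n = 4 each; log2 -1.36, SE 0.37, limma adjusted p = 0.0356). That call ended without HFD 2, 3 or 4 or chow 1, 2 or C7, and with no filter (limma adjusted p 0.0602 to 0.0942). Serpina1e did not pass for HFD+ASBTi against HFD (log2 0.68, SE 0.37, limma adjusted p = 0.601) or against chow (-0.675, SE 0.37, 0.302). Its share of Serpina1 reads was 13.5% ± 5.68 in HFD+ASBTi, 9.21% ± 1.84 in HFD and 17.5% ± 3.60 in chow (SD, n = 4 each), with every HFD library below every chow library.

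Serpina1a to Serpina1d moved within a narrower range. Serpina1a was at 296, 298, 270.0 and 314 RPKM in HFD+ASBTi, 354, 252, 213 and 251 in HFD, and 339.9, 329, 333 and 322 in chow libraries. Serpina1c was at 388, 401, 375 and 408 RPKM in HFD+ASBTi, 466, 324, 265 and 299 in HFD, and 430.2, 429.6, 417 and 413 in chow libraries. In both genes HFD 1 was the highest of all 12 libraries and HFD 2, 3 and 4 were below every chow library.

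Serpina1b was at 306, 311, 273 and 299 RPKM in HFD+ASBTi, 346, 288, 265 and 315 in HFD, and 362, 344, 337 and 332 in chow libraries. Serpina1d was at 207, 216, 201 and 216 RPKM in HFD+ASBTi, 256, 189, 171 and 187 in HFD, and 265, 255, 239 and 240.4 in chow libraries. Each of these 4 copies was lower in all HFD+ASBTi libraries than in all chow libraries (5.53% of genes tested were lower without overlap), with chow means 1.07-fold to 1.19-fold higher. As the copies may share reads, these are not 4 separate results.

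The model gave no call for Serpina1a to Serpina1d. For HFD+ASBTi against chow their log2 differences were -0.17, -0.21, -0.10 and -0.25 (limma adjusted p 0.215 to 0.721). For HFD against chow they were -0.33, -0.19, -0.35 and -0.33 (limma adjusted p 0.0893 to 0.227). Without HFD 1, Serpina1a, Serpina1c and Serpina1d were lower in HFD than in chow (log2 -0.47, -0.52 and -0.45, limma adjusted p = 0.0115, 0.00677 and 0.00863, within 0.00677 to 0.373 over the alternatives of these genes). The part of the marker sums in which HFD 1 stood apart was not tested.

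**Figure D4:**
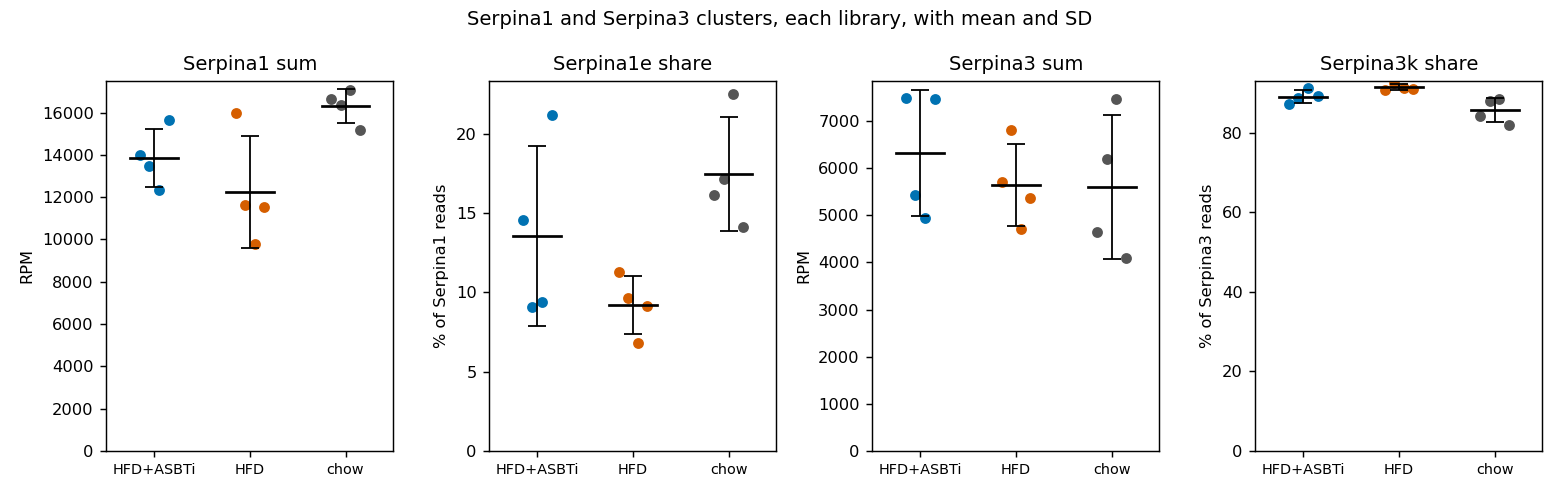
Sums of the Serpina1 and Serpina3 clusters in RPM, with the share of Serpina1e in Serpina1 reads and of Serpina3k in Serpina3 reads in percent, for HFD+ASBTi at the left, HFD in the middle and chow at the right. Points are libraries, lines are means and bars are SD (n = 4 each). The Serpina1 sum was lowest in 3 HFD libraries, and the Serpina1e share was lower in every HFD than in every chow library.

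The Serpina3 cluster has many copies in the mouse, where humans have a single gene for alpha1-antichymotrypsin. Its sum was 7497, 5429, 4934 and 7461 RPM in HFD+ASBTi, 5699, 6803, 4708 and 5359.6 RPM in HFD, and 4644, 6187, 7465 and 4097 RPM in chow libraries. The groups overlapped throughout. Serpina3k, a kallikrein-binding copy, gave 89.1% ± 1.69 of it in HFD+ASBTi, 91.4% ± 0.733 in HFD and 85.7% ± 3.08 in chow (SD, n = 4 each). Its RPKM was 853, 629, 588 and 870.3 in HFD+ASBTi, 676, 822, 561 and 638 in HFD, and 511, 712, 862 and 439 in chow libraries, with no order of the groups. The log2 differences were 0.12 for HFD+ASBTi against HFD, 0.25 for HFD+ASBTi against chow and 0.13 for HFD against chow (SE 0.22 each, limma adjusted p 0.548 to 0.912).

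Serpina3m, another liver copy, was at 36.7, 33.1, 34.9 and 41.3 RPKM in HFD+ASBTi, 31.2, 39.4, 28.6 and 30.7 in HFD, and 45.9, 46.4, 46.6 and 40.3 in chow libraries. Every HFD library was below every chow library, by a margin of 39.4 against 40.3 RPKM at the closest pair. HFD averaged 32.5 ± 4.77 RPKM, against 44.8 ± 3.01 in chow (SD, n = 4 each; log2 -0.47, SE 0.11, limma adjusted p = 0.0220). That call ended without HFD 3 or chow 1, 2 or C7 (limma adjusted p 0.0559 to 0.0650). Serpina3m did not pass for HFD+ASBTi against HFD (log2 0.17, SE 0.11, limma adjusted p = 0.663) or against chow (-0.29, SE 0.11, 0.142).

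Serpina3n, an acute phase copy that inhibits granzyme B in the mouse, was at 91.6, 48.5, 23.8 and 65.7 RPKM in HFD+ASBTi, 38.7, 29.8, 27.2 and 33.3 in HFD, and 53.2, 52.9, 69.8 and 58.6 in chow libraries. HFD libraries were all below chow, while the HFD+ASBTi libraries held both the lowest and the highest value of the 12. Serpina3n did not pass for HFD against chow (log2 -0.86, SE 0.32, limma adjusted p = 0.108). It passed when only those groups entered the model (0.00792) and without HFD+ASBTi 3 (0.0171), and its adjusted p ranged from 0.00792 to 0.222 over all alternatives. For HFD+ASBTi against HFD the log2 difference was 0.68 (SE 0.32, limma adjusted p = 0.564), and against chow it was -0.18 (0.786).

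A further 8 Serpina3 genes were under the filter. Serpina3g and Serpina3f were the highest of them, at 0.167 to 0.489 and 0.103 to 0.560 RPKM over the 12 libraries, with HFD+ASBTi 2 the highest in both. Serpina3h, annotated as a transcribed pseudogene, was at 0.0284 to 0.186 RPKM. Serpina3c and Serpina3i were above 0 in 8 libraries, Serpina3b in 3, and Serpina3a and Serpina3j in 1 each, with at most 4 estimated reads in any library.

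Of 20 tested genes of IL-6 and STAT3 signalling and the acute phase, 0 passed for HFD+ASBTi against HFD and 0 for HFD+ASBTi against chow, and 3 were lower for HFD against chow. Their median log2 differences were 0.44, -0.14 and -0.52 in these comparisons. Orm2, an acute phase glycoprotein, was at 4.26 ± 1.78 RPKM in HFD and 14.7 ± 3.92 in chow (SD, n = 4 each; limma adjusted p = 0.0347). The other members that were lower were Crp, C-reactive protein (log2 -0.48, limma adjusted p = 0.0264), and Il6ra, a chain of the IL-6 receptor (-0.41, 0.0498). Il6ra averaged 0.399 RPKM in HFD, under the 0.5 RPKM of the filter, and 0.691 in chow. The list summed to 13140, 6744, 4365 and 11913 RPM in HFD+ASBTi, 7183, 5007, 3994 and 6606 RPM in HFD, and 7769, 7887, 10390.0 and 9278 RPM in chow libraries. A list of 8 granule genes of neutrophils, mast cells and lymphocytes was drawn up for possible targets of alpha1-antitrypsin and its Serpina3 relatives. Most encode serine proteases, but Mpo is a peroxidase, and not every member is such a target. By the filter, 0 of the 8 were tested, and 7 were under 0.5 RPKM in every library.

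Serpinf2, alpha2-antiplasmin, the main inhibitor of plasmin, was the serpin nearest to a difference between HFD+ASBTi and HFD. Its RPKM was 48.9, 59.4, 38.3 and 54.8 in HFD+ASBTi, 39.1, 32.4, 27.8 and 45.0 in HFD, and 60.7, 53.6, 53.3 and 53.8 in chow libraries. HFD libraries were all below chow, and HFD+ASBTi overlapped both. HFD+ASBTi averaged 50.3 ± 9.12 RPKM, against 36.1 ± 7.56 in HFD (SD, n = 4 each; log2 0.48, SE 0.16, limma adjusted p = 0.434; adjusted p 0.231 to 0.702 over the alternatives). It was the serpin with an unadjusted limma p under 0.05 in that comparison (0.0137). HFD against chow, with a chow mean of 55.4 ± 3.57 RPKM, gave log2 -0.63 (SE 0.16, limma adjusted p = 0.0303). That call ended without HFD 2 or 3 or any 1 chow library, and with no filter (limma adjusted p 0.0574 to 0.0828). Against chow, HFD+ASBTi did not pass (log2 -0.15, SE 0.16, limma adjusted p = 0.628).

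Serpinc1, antithrombin, which inhibits thrombin and factor Xa, had RPKM of 28.6, 31.1, 30.8 and 27.8 in HFD+ASBTi, 30.4, 26.2, 26.3 and 28.0 in HFD, and 35.2, 32.0, 25.3 and 30.5 in chow libraries. Serpind1, heparin cofactor II, a thrombin inhibitor, was at 18.4, 19.0, 18.6 and 17.4 RPKM in HFD+ASBTi, 23.4, 17.7, 15.4 and 18.8 in HFD, and 19.2, 17.3, 17.4 and 17.9 in chow libraries. The groups overlapped in both genes, and their log2 differences were -0.14 to 0.09 (SE 0.10 to 0.11, limma adjusted p 0.403 to 0.975), and Serpind1 turned negative in both comparisons with chow under median-of-ratios scaling.

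Serping1, the C1 inhibitor, was at 44.3, 39.9, 37.0 and 47.0 RPKM in HFD+ASBTi, 49.9, 32.5, 29.5 and 38.9 in HFD, and 37.2, 36.3, 38.3 and 35.1 in chow libraries. Serpina10, the protein Z-dependent inhibitor of factor Xa, was at 8.64, 6.99, 6.15 and 14.9 RPKM in HFD+ASBTi, 6.90, 7.27, 5.10 and 8.36 in HFD, and 5.90, 6.62, 6.97 and 6.59 in chow libraries. Both overlapped in all comparisons, with HFD+ASBTi 4 the highest of 12 for Serpina10 and HFD 1 for Serping1. Neither passed, and Serping1 was negative for HFD against chow under median-of-ratios scaling (limma adjusted p 0.493 to 0.978 for Serping1 and 0.349 to 0.894 for Serpina10).

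Among the proteases and substrates these inhibitors meet, 0 genes passed for HFD+ASBTi against HFD in the lists of coagulation (15 tested), fibrinolysis (6) and complement proteases (9). For HFD+ASBTi against chow, 0 coagulation genes, 1 fibrinolysis gene and 1 complement gene were higher and 0 were lower. These were Hgfac, an activator of hepatocyte growth factor (log2 0.59, limma adjusted p = 0.0402), and C1s, a protease of the complement C1 complex that Serping1 inhibits (0.43, 0.00886).

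For HFD against chow, 3 coagulation genes were lower and 1 higher, 1 fibrinolysis gene was lower, and 2 complement genes were higher. The lower ones were the fibrinogen chains Fga, Fgb and Fgg (log2 -0.94, -0.71 and -0.68, limma adjusted p = 0.0126, 0.0257 and 0.0289) and Plg, plasminogen, whose active form Serpinf2 inhibits (-0.40, 0.0171). Plg was at 14.4 ± 1.60 RPKM in HFD and 19.0 ± 0.273 in chow (SD, n = 4 each). The higher ones were F13b, a subunit of the clot-crosslinking factor XIII, C1s, and Cfd, complement factor D, which is also an adipose marker. Of 11 other tested inhibitors and carriers of plasma, 3 (Agt, Fetub and Mug1) were lower and 1 (Mug2) was higher for HFD against chow, and 0 passed in the other comparisons. Agt, angiotensinogen, is a serpin by descent under another name, and was at 18.3 ± 3.51 RPKM in HFD and 30.2 ± 3.97 in chow (SD, n = 4 each; limma adjusted p = 0.0114).

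Serpinf1, pigment epithelium-derived factor, inhibits no protease. Its RPKM was 13.8, 15.4, 16.1 and 12.3 in HFD+ASBTi, 13.8, 12.4, 13.5 and 15.4 in HFD, and 16.0, 13.7, 12.2 and 13.6 in chow libraries, with log2 differences of 0.06, 0.05 and -0.01 (HFD+ASBTi against HFD, HFD+ASBTi against chow and HFD against chow; SE 0.11, limma adjusted p 0.816 to 0.972, with the second negative under median-of-ratios scaling). Serpina11 was at 5.08, 3.47, 3.39 and 4.39 RPKM in HFD+ASBTi, 4.34, 3.28, 3.33 and 4.09 in HFD, and 3.25, 3.88, 3.98 and 3.10 in chow libraries (limma adjusted p 0.504 to 0.861). Both genes overlapped in all comparisons.

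Serpinh1, the collagen chaperone HSP47 of collagen-producing cells, was near the filter, at 0.629, 0.587, 0.184 and 0.484 RPKM in HFD+ASBTi, 0.303, 0.604, 0.939 and 0.835 in HFD, and 0.316, 0.226, 0.370 and 0.188 in chow libraries. HFD 2, 3 and 4 were above every chow library and HFD 1 was within the chow range. No chow library reached 0.5 RPKM, so Serpinh1 met the filter through the high-fat libraries. It did not pass for HFD against chow (log2 0.57, SE 0.20, limma adjusted p = 0.0833), and it passed without HFD 1 (0.0234) or without HFD+ASBTi 3 (0.0472), with 0.0234 to 0.204 over all alternatives. The stellate cell marker sum was 23.6 to 52.5 RPM in HFD+ASBTi, 22.7 to 64.3 in HFD and 28.8 to 49.8 in chow libraries, lowest in HFD 1 in HFD as Serpinh1 was. Its part in this result was not tested. Of 13 collagen and collagen-folding genes, 2 were tested and 0 passed by limma, and 11 were under 0.5 RPKM in every library.

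Serpinb6a, an intracellular inhibitor of cathepsin G, was the clade b gene that passed the filter. Its RPKM was 0.583, 0.726, 0.766 and 0.540 in HFD+ASBTi, 0.725, 0.679, 0.775 and 0.749 in HFD, and 0.642, 0.541, 0.506 and 0.537 in chow libraries. HFD libraries were all above chow, by 0.679 against 0.642 RPKM at the closest pair, but the gene did not pass (log2 0.22, SE 0.07, limma adjusted p = 0.0661). It passed with RPM in place of RPKM, with only those groups in the model and without HFD+ASBTi 3 or 4 (0.0403 to 0.353 over all alternatives).

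Of the 42 serpins under the filter, 26 were of clade b, 11 of clade a, 3 of clade e and 2 of clade i. Their levels rest on at most 200 estimated reads in any library, so counts are given in place of folds. As RPKM had been divided by the genomic span, a gene under the filter need not have fewer reads than one that passed. Serpine2 was under it with 27 to 200 estimated reads, while Serpinh1 passed with 13 to 87. For HFD+ASBTi against HFD, 0 of the 13 with all 4 libraries of a group above 0 did not overlap (3.64% of such genes under the filter did not, 1.73% higher and 1.91% lower). For HFD+ASBTi against chow, 3 of 14 were higher without overlap (7.13% of such genes were, with 3.07% lower and 10.2% in all). For HFD against chow, 2 of 13 were higher and 1 lower (8.61% and 3.92%, 12.5% in all).

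Serpina9, a clade a serpin known from germinal centre B cells in humans, had 20, 2, 2 and 20 estimated reads in HFD+ASBTi, 6, 7, 2 and 11 in HFD, and 0, 1, 1 and 1 in chow libraries. All high-fat libraries were above chow, by as little as 2 reads against 1, and HFD+ASBTi 1 and 4 stood far above HFD+ASBTi 2 and 3. The 10 T, B and NK cell markers were under 0.5 RPKM in every library and summed to 1.35 to 3.08 RPM in HFD+ASBTi, 2.16 to 3.31 in HFD and 1.497 to 3.48 in chow. Serpina5, the protein C inhibitor, had 2, 1, 1 and 2 estimated reads in HFD+ASBTi, 1, 2, 0 and 3 in HFD, and 0, 0, 1 and 0 in chow libraries, too few to show a difference.

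Serpinb8, an intracellular serpin, had 25, 31, 14 and 11 estimated reads in HFD+ASBTi, 18, 25, 39 and 30 in HFD, and 7, 7, 8 and 11 in chow libraries. In RPKM all 8 high-fat libraries were above chow, the closest pair being 0.0630 in HFD+ASBTi 4 and 0.0536 in chow 4. It passed for HFD against chow with RPM in place of RPKM (log2 1.20, SE 0.23, limma adjusted p = 0.00546), and for HFD+ASBTi against chow in the same scale (0.93, SE 0.23, 0.0312). With RPKM and no filter on low values it passed for HFD against chow only (log2 0.21, SE 0.05, limma adjusted p = 0.0318). The size of the log2 difference thus depends on the scale.

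Serpinb1a, an intracellular inhibitor of neutrophil elastase and cathepsin G, had 33, 59, 11 and 6 estimated reads in HFD+ASBTi, 9, 7, 3 and 19 in HFD, and 34, 19, 31 and 76 in chow libraries. HFD was below chow in RPKM, with 0.158 in HFD 4 against 0.196 in chow 2 at the closest pair, and HFD+ASBTi spanned both. With RPM in place of RPKM it was lower for HFD against chow (log2 -1.61, SE 0.47, limma adjusted p = 0.0454). The 7 neutrophil markers in the table were under 0.5 RPKM in every library and summed to 1.43 to 4.10 RPM in HFD+ASBTi, 2.30 to 2.88 in HFD and 0.910 to 2.71 in chow.

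Clade e serpins are extracellular inhibitors made by many cell types. Serpine2, protease nexin 1, an inhibitor of thrombin, had 68, 45, 29 and 95 estimated reads in HFD+ASBTi, 100, 78, 56 and 27 in HFD, and 171, 200, 177 and 99 in chow libraries. Chow was higher apart from 1 overlapping library, chow 4, and with RPM in place of RPKM it passed as lower for HFD against chow (log2 -1.38, SE 0.40, limma adjusted p = 0.0425). Serpine3 was at 0.0740 to 0.168 RPKM with no order of the groups. Both genes were singled out after their values were seen.

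The other clade b serpins were low. Serpinb9, an inhibitor of granzyme B, was at 0.211 to 0.596 RPKM and Serpinb6b at 0.0482 to 0.186, both above 0 in all 12 libraries with overlapping groups. A further 10 of clade b (Serpinb10, Serpinb1b, Serpinb1c, Serpinb2, Serpinb6c, Serpinb7, Serpinb9b, Serpinb9c, Serpinb9e and Serpinb9g) had at most 3 estimated reads in any library. The 12 clade b genes listed at 0 everywhere included Serpinb3a to Serpinb3d, Serpinb5 and Serpinb11 to Serpinb13. Serpini1, neuroserpin, had at most 9 estimated reads, and Serpini2 was listed at 0.

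**Figure D5:**
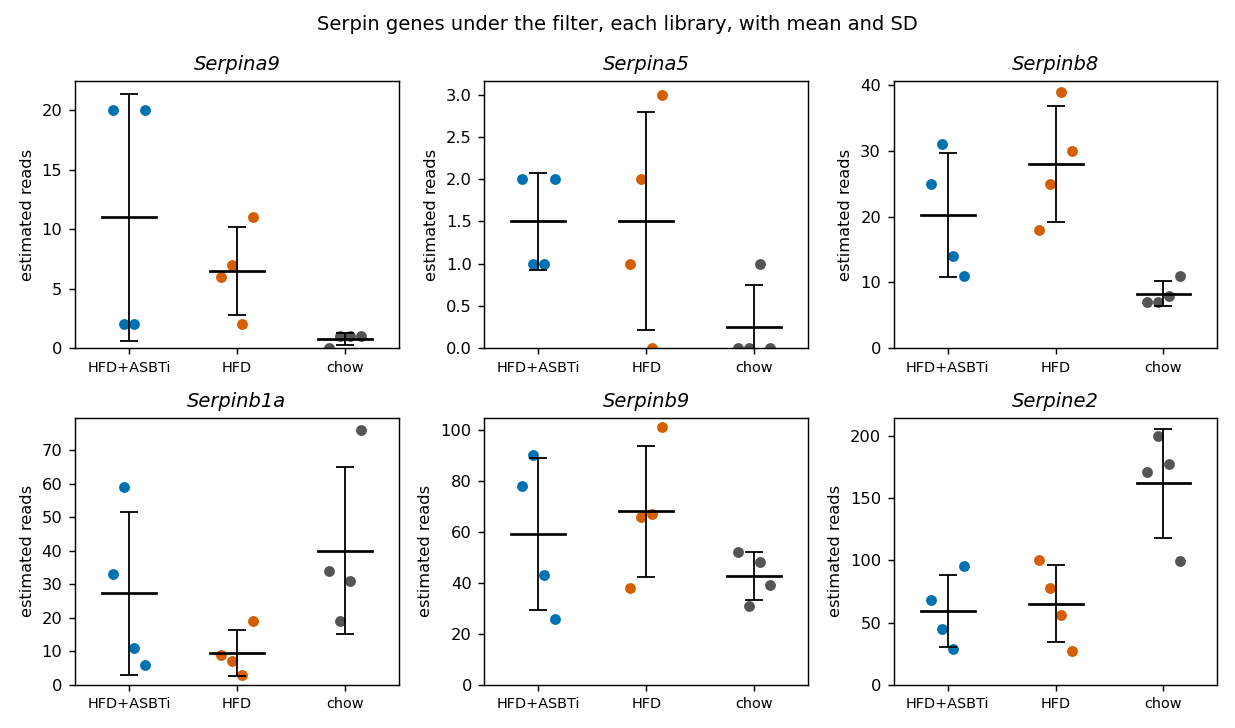
Estimated reads of 6 serpin genes under the filter in each library, with HFD+ASBTi at the left, HFD in the middle and chow at the right. Points are libraries, lines are means and bars are SD (n = 4 each), drawn down to 0 at most. Serpinb8 lay lower in chow than in most high-fat libraries, Serpine2 lay higher in 3 of 4 chow libraries than in the other 9, and Serpinb9 had overlapping groups.

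Of the liver-rich transcription factors, 10 were tested, of which 0 passed for HFD+ASBTi against HFD, and 1 was higher and 1 lower in each comparison with chow. Hnf4a, a nuclear receptor of hepatocyte genes, was at 13.3 ± 0.921 RPKM in HFD+ASBTi, 11.3 ± 1.60 in HFD and 19.2 ± 1.08 in chow (SD, n = 4 each; limma adjusted p = 0.0155 for HFD+ASBTi against chow and 0.00126 for HFD against chow). Cebpa, a leucine zipper factor of hepatocytes, was at 97.3 ± 13.6, 95.2 ± 8.26 and 65.1 ± 4.65 RPKM in the same order (0.0158 and 0.0111). Of 14 tested genes of growth hormone and STAT5 signalling, 0 passed for HFD+ASBTi against HFD, and 2 (Ghr, the growth hormone receptor, and Mup20, a urinary protein) were higher in each comparison with chow.

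Over the 12 libraries, the tested genes whose log2 values were most like those of Serpina7 were Cela2a (Pearson r = 0.951), Serpina12 (0.947), Tmem254b (0.934), Tmem254c (0.934) and Tmem254a (0.931). For Serpinf2 they were Cbs (0.917), Pnp (0.914), Cpn2 (0.911), Nnmt (0.905) and Nudt22 (0.884). These are descriptions of patterns that share the same libraries and groups, with no p given. Cela2a is a pancreatic elastase, and 6 of 9 pancreas markers were listed at 0 in every library. The 3 Tmem254 genes are near-identical copies that may share reads.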

How the data were processed

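The 12 liver RNA libraries were analysed from 1 table. The authors' deposited values are RPKM per RefSeq transcript, made from reads aligned with Bowtie 0.12.7 to mm9, per the submitters' processing notes; no label or header names the counting tool or strand setting. Low values were whole multiples of 1 read (within 0.05 read) for 78.2% to 80.9% of values when the genomic span was the length, and for 12.1% to 13.2% when the spliced length was. RPM and estimated reads were therefore RPKM times the span, known for 99.3% of genes; spans and lengths come from the annotation of GRCm38, not mm9. The transcript with the highest mean stood for each of 23991 genes. Of 33763 transcripts, 48 had date-like symbols that were restored and 2605 had none, of which 2589 were named by accession.

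Genes with at least 0.5 RPKM in at least 4 libraries (6325) were tested on log2(RPKM + 0.5), which understates changes of low genes, with limma 3.58.1 (R 4.3.3, mean-variance trend, two-sided, 9 residual degrees of freedom, Benjamini-Hochberg threshold 0.05). Tables and figures used Python 3.11.15, pandas 2.3.3, numpy 2.4.6 and matplotlib 3.10.9. On simulated HFD and chow values over 6325 genes, 90 of 100 genes changed by log2 1 and 95 of 100 changed by log2 2 were recovered, with 14 false calls. The comparisons share libraries, so they are not independent.

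Serpins that passed the filter were named with every library, and others where groups did not overlap. Members and lists were chosen with earlier results of these data known. Other settings tried were pseudocounts, filters, scaling, RPM, summed transcripts, no trend, fewer groups and each library left out. Results of 1 serpin are not reported here.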

Additional observations from a re-analysis of the deposited data

Results flagged for a closer look

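In 6 of 75 sets of 4 libraries of a serpin gene, 1 library lay far from the other 3 by Dixon's 95% criterion, where chance gives about 1 in 20. All were in chow. Serpina5, Serpina9 and Serpinb8 were under the filter and were examined because groups did not overlap. For Serpina5 and Serpina9 each chow library had 0 or 1 read, so 1 differing library met the criterion by arithmetic. The rate of 1 in 20 does not apply to these sets. Chow 4 had 40.3 RPKM of Serpina3m, the lowest of chow, where the others had 45.9 to 46.6. Chow C7 had 5.62 RPKM of Serpina4-ps1, where the others had 0.626 to 1.29. Chow 1 had 60.7 RPKM of Serpinf2, where the others had 53.3 to 53.8. Chow C7 had 0.0175 RPKM of Serpina5, 1 estimated read, where the others were listed at 0. Chow 1 was listed at 0 RPKM for Serpina9, where the others had 0.00517 to 0.00550, also 1 read each. Chow 4 had 0.0536 RPKM of Serpinb8, where the others had 0.0339 to 0.0371.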

How the results depend on the processing

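Of 1338 alternative values of single serpins, 1271 kept their direction and side of the threshold, 26 lost a call, 12 gained one and 29 changed sign; the cause was not tested. Many of these could not change direction. Settings that alter only the filter, the trend or the third group leave the log2 difference as it was, so the 1271 is no measure of robustness in direction. Serpins that passed for HFD against chow numbered 10 with RPM and 2 to 9 with each library left out. Over all genes, HFD against chow gave 1306 with RPM and 458 to 864 with each library left out, and HFD+ASBTi against chow gave 728 and 142 to 521. HFD+ASBTi against HFD gave 2 genes with pseudocount 1, with summed transcripts or without the trend, 0 with no filter, 1 with a mean of at least 1 RPKM, 3 with only the groups compared, and 0 to 9 with each library left out. With the replicate block in HFD+ASBTi against HFD, 3 genes and 0 serpins passed. Same-numbered libraries deviated together at r of 0.0408 to 0.0691 and not every library was most like its own number, so the numbers were not taken as pairs. With median-of-ratios scaling, HFD against chow gave -0.00503 for Serpind1 and -0.0502 for Serping1, and HFD+ASBTi against chow gave -0.0314 for Serpind1 and -0.0109 for Serpinf1, none called. With each library left out, log2 differences of HFD+ASBTi against HFD spanned -0.00185 to 0.17 for Serpina11, -0.19 to 0.15 for Serpina12, -0.0879 to 0.0403 for Serpina1b, -0.23 to 0.22 for Serpina7 and -0.11 to 0.0866 for Serpind1. Those of HFD+ASBTi against chow spanned -0.45 to 0.19 for Serpina3n, -0.14 to 0.0206 for Serpinc1 and -0.00554 to 0.12 for Serpinf1. Those of HFD against chow spanned -0.0321 to 0.19 for Serpina10, -0.0247 to 0.30 for Serpina3k, -0.0539 to 0.14 for Serpind1, -0.0665 to 0.0596 for Serpinf1 and -0.13 to 0.12 for Serping1. Serpins under the filter rest on at most 200 estimated reads, which limits what can be detected there.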
